A study of Mus musculus with 10 samples.

Results

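Pericentral hepatocytes outside the central rim are the liver cells that lie near the central vein of the lobule but do not belong to the thin layer of glutamine synthetase-rich cells that lines the vein. They were chosen by a rule on measured values. Within each library a score was formed from the levels of 16 landmark genes, as the mean z-score of 8 periportal genes (Ftcd, Hal, Pigr, Asl, Cyp2f2, Ctsc, Ass1 and Hsd17b13) minus the same mean over 8 pericentral genes (Rgn, Gulo, Cyp2e1, Lect2, Oat, Cyp1a2, Mgst1 and Aldh1a1). When the cells were ordered by this score and split into 3 equal parts, the members were the cells of the lowest part with fewer than 5 unique molecular identifiers (UMIs, counts of distinct tagged RNA molecules) of Glul, the gene of glutamine synthetase. The rule selected 5585 of 18378 cells (30.39%). The lowest part also held 545 cells with at least 5 Glul UMIs, called rim cells below, and the other parts held 6127 midlobular and 6121 periportal cells.

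The cells were single hepatocytes of C57BL/6 male mice at 3 months of age that ate regular chow freely. Mice were anaesthetised with ketamine and xylazine, the liver was perfused with collagenase, and hepatocytes were purified on a Percoll gradient before droplet-based sequencing of 3' transcript ends. The 4 groups differed by their labels only in zeitgeber time (ZT, hours of the light-dark cycle counted from lights on), with 3 libraries at ZT0 (A, B, C), 2 at ZT6 (A, B), 3 at ZT12 (A, B, C) and 2 at ZT18 (A, B). The number of mice behind a library is not in the labels, so the tests measure the spread between libraries, which may in part be technical.

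Blood enters the liver lobule at portal veins and leaves it at the central vein, so hepatocytes along the way meet falling oxygen and different hormone and metabolite levels. Hepatocytes next to the central vein are known for drug metabolism by cytochrome P450 enzymes, for glutathione conjugation, bile acid synthesis and glutamine synthesis, and their zone is maintained by Wnt signals from the vein's endothelium. Periportal hepatocytes are known for urea synthesis, gluconeogenesis and amino acid breakdown. The circadian clock, a loop of transcription factors that includes ARNTL and its repressors of the PER, CRY and REV-ERB families, sets daily rhythms in many hepatocyte genes.

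The members per library numbered 663, 923 and 455 at ZT0 (A, B, C), 761 and 444 at ZT6, 204, 752 and 250 at ZT12 and 542 and 591 at ZT18. Their median depth was 1546 to 2864 UMIs per cell, and 393400 to 2310000 UMIs were summed per library. The score is a continuous range and not a type. Within 0.1 score units of the cut lay 479 member cells on the inside and 446 midlobular cells on the outside. On the Glul side, 42 cells with exactly 4 Glul UMIs were just inside and 32 cells with exactly 5 were just outside.

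The label was checked on markers that the rule did not read. Aldh3a2, a fatty aldehyde dehydrogenase, had a UMI in 24.3% to 57.6% of member cells, against 2.59% to 23.9% of midlobular, 0.734% to 3.40% of periportal and 41.3% to 72.2% of rim cells. Cyp2c37, a P450 of fatty acid and drug oxidation, had one in 22.2% to 71.9%, against 3.04% to 31.8%, 0.528% to 3.81% and 66.7% to 100% in the same order. Both markers thus reached higher shares in the rim, and the ranges of Cyp2c37 overlapped with midlobular cells. Median depths were alike, with a median over libraries of 1897 UMIs in member and 2000 in periportal cells. After every cell was thinned to 1000 UMIs, with no cell left out, the shares were 10.9% to 30.8% and 10.4% to 43.7% in member cells and 0.289% to 1.88% and 0% to 2.97% in periportal cells. Midlobular cells then gave 1.44% to 9.38% and 1.46% to 14.4%, and rim cells 19.4% to 60% and 50% to 84.85%. The ranges of Cyp2c37 in member and midlobular cells thus still overlapped. Cyp2e1 and Cyp1a2, which the rule read, had a UMI in 85.1% to 100% and 57.0% to 95.4% of member cells. When cells were chosen on the odd-numbered landmarks alone, the landmarks left out still had higher pericentral levels: Oat, which handles ornithine, measured 822 ± 564 CPM (counts scaled to a common library total; SD, n = 10 libraries) in the members so chosen and 161 ± 148 in midlobular cells, higher in 10 of 10 libraries.

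Genes that define other liver cells were low or at 0 in the members, with sums of at most 31.2 CPM per list apart from the erythroid one. Summed over each list of markers, the members held 2.54 to 25.6 CPM of 12 endothelial markers, 0 to 13.7 CPM of 10 macrophage markers, 0 to 1.09 CPM of 8 lymphocyte markers and 0 to 25.2 CPM of 4 neutrophil markers, depending on the library. They also held 2.33 to 19.96 CPM of 7 stellate cell markers, 4.65 to 31.2 CPM of 6 cholangiocyte markers and 76.3 to 140 CPM of 5 erythroid markers. The erythroid sum was 68.2 to 858 CPM in midlobular cells and 61.9 to 98.1 CPM in periportal cells. In each library 4 to 11 of the endothelial, 5 to 10 of the macrophage, 7 to 8 of the lymphocyte, 2 to 4 of the neutrophil, 0 to 6 of the stellate, 3 to 5 of the cholangiocyte and 0 to 4 of the erythroid markers were at 0. Mitochondrially encoded genes took a median of 11.1% to 24.1% of a member cell's UMIs, less than in midlobular cells in 10 of 10 libraries. The part of mitochondrial share in the results below was not tested.

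ZT0C and ZT12C stood apart. Members with at least 1 Glul UMI made up 43.5% of the members in ZT0C and 45.2% in ZT12C, against 15.9% to 26.5% in the other libraries, and the members made up 25.3% and 21.9% of the cells. Rim cells made up 8.02% and 11.4% of those libraries. Both carry the same sample index by their labels (number 5), and both ZT18 libraries carry an index (number 4) that no other library has, so that index and ZT18 cannot be told apart. ZT0B, ZT6A, ZT6B and ZT12B all carry number 7. Across times their levels (log2 CPM) correlated at 0.9494 to 0.965. Pairs within ZT0 gave 0.9263 to 0.93 and within ZT12 0.8963 to 0.9105. ZT0A and ZT12A, which share number 3, gave 0.8682. The part of the index in the results was not tested apart from time. Counts over all genes are given with and without ZT0C and ZT12C below, and counts over a list where they differ by more than 1.5 times.

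Member cells were not uniform, and levels followed the score inside the zone as well. When the members of each library were split into 3 equal groups by score, the landmarks changed by construction, with Oat at 1638 CPM in the inner, 674 in the middle and 394 in the outer group. Genes that the rule did not read changed as well, and they are described without a test. Slc1a2, which encodes a glutamate transporter, measured 148 CPM in the inner group, 35.4 in the middle and 8.04 in the outer. Cyp2c37 measured 514, 295 and 187 CPM. Both were higher in the inner than in the outer group in 10 of 10 libraries. Cps1, the entry enzyme of the urea cycle, went the other way, from 1668 to 2422 to 2624 CPM, and Gls2, the liver glutaminase, went from 24.1 to 47.6 to 93.6 CPM, each lower in the inner group in 10 of 10 libraries. For 2 enzymes of bile acid synthesis the inner and outer levels were near each other: Cyp8b1 measured 206 and 207 CPM and Cyp27a1 275 and 245 CPM.

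**Figure D1:**
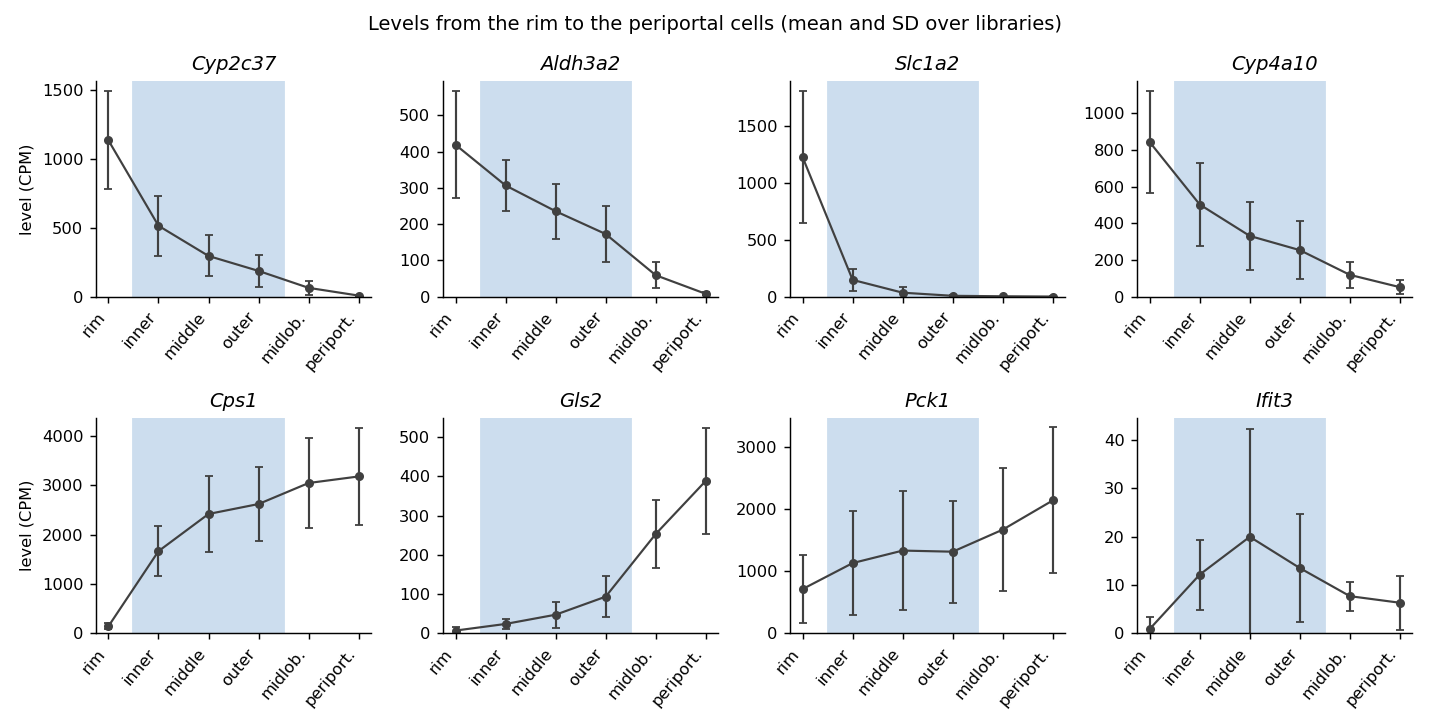
Levels (CPM, linear axis from 0) of 8 genes that the rule did not read, in rim cells, in the inner, middle and outer groups of the member cells (shaded), and in midlobular and periportal cells; points are means and bars SDs over 10 libraries, with 8 libraries for the rim. Cyp2c37, Aldh3a2, Slc1a2 and Cyp4a10 fall from left to right, Cps1 and Gls2 rise, and Ifit3 has its highest mean in the middle group, with an SD as large as that mean.

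The first comparison asked which genes set the member cells apart from their midlobular neighbours. The cells compared are those that the score sorted, so the test tells which genes follow the score; the 16 landmarks and Glul are left out of it. Among the genes that passed the test, those of P450 enzymes, fatty acid oxidation and bile acids were more often higher than lower in the members, and those of glucose and of ammonia and glutamate handling were more often lower. Of 8905 genes tested, 570 (6.40%) were higher and 586 (6.58%) lower by edgeR's quasi-likelihood test with the library as a block (adjusted p under 0.05 by Benjamini-Hochberg), with 2057 at an unadjusted p under 0.05. DESeq2 called 744. With library size alone in place of TMM, 909 were higher and 410 lower. Without ZT0C and ZT12C, 994 were called. The median log2 difference over all genes was 0.0011.

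Among P450 genes and their partners, 21 of 35 tested were higher and 4 lower, at a median log2 difference of 0.42. Cyp2a5, which oxidises nicotine and coumarin, measured 101 to 1255 CPM in the members (median 354) and 9.28 to 258 CPM in midlobular cells (median 60.0), which gave a log2 difference of 2.28 ± 0.11 (SE; by edgeR, adjusted p = 2.44e-21). Cyp2c37 measured 122 to 579 CPM (median 301) against 11.9 to 161 (median 42.1), a log2 difference of 2.43 ± 0.10 (edgeR adjusted p = 3.79e-23). Levels overlapped between the groups of libraries, but within each library the members were higher, in 10 of 10. The genes of largest difference named in each zone comparison were chosen to have the same direction in every library, so for them this count was set by the choice. Cyp2c29 was higher by 1.76 ± 0.13 (log2), Cyp2c69 by 1.53 ± 0.09 and Cyp3a11, the main drug-oxidising CYP3A enzyme of mouse liver, by 0.90 ± 0.05. Reads of the closely related Cyp2a, Cyp2c and Cyp3a copies may be split among them, so that each of these values is uncertain. Por, the reductase that passes electrons to P450s, was higher by 0.61 ± 0.07. The 4 lower members were Cyp2a12, Cyp2d26, Cyp2u1 and Cyp3a13.

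The other steps of detoxification were more mixed. Of 30 genes of glutathione metabolism, 10 were higher and 3 lower (median 0.10). Gstm2, a glutathione transferase, measured 30.1 to 103 CPM (median 80.4) against 8.93 to 36.0 (median 17.0), higher in 10 of 10 libraries by 1.93 ± 0.12 (log2, edgeR adjusted p = 5.38e-18), and Gstm3 was higher by 1.25 ± 0.11. The lower ones were Gss, Gstp1 and Gstp2. Of 33 genes of glucuronidation, sulfation and ester cleavage, 12 were higher and 7 lower (median 0.10). Of 18 aldehyde dehydrogenases and oxidases, 4 were higher and 4 lower. Aldh3a2 measured 117 to 332 CPM (median 257) against 12.9 to 103 (median 54.6), a log2 difference of 2.07 ± 0.12.

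Haem, the cofactor of P450s, had 5 of 17 genes higher and 1 lower. Cpox, a late enzyme of haem synthesis, was higher by 0.72 ± 0.08 (log2). Alas1, the rate-limiting enzyme, was higher by 0.19 ± 0.06 (edgeR adjusted p = 0.0382), and its call was lost by DESeq2 (adjusted p = 0.107) and without any one of 6 of the 10 libraries. Among nuclear receptors and other regulators, 4 of 36 were higher (Ahr, Cebpb, Nr1i3 and Onecut2) and 2 lower (Esr1 and Rora). Nr1i3, the receptor CAR that drives P450 genes in response to drugs, measured 53.4 to 206 CPM (median 120) in the members and 25.3 to 165 (median 76.5) in midlobular cells. Its log2 difference was 0.67 ± 0.08, higher in 10 of 10 libraries. Ahr, the dioxin receptor, was higher by 0.96 ± 0.11.

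Genes of fatty acid oxidation and bile acids that passed were more often higher in the members, and the lists of lipid synthesis and cholesterol kept no direction. Of 39 genes of fatty acid oxidation and ketone synthesis, 16 were higher and 1 lower (median 0.20). Cyp4a10, which adds a hydroxyl group to the end of fatty acids, measured 135 to 622 CPM (median 380) against 16.5 to 210 (median 128), a log2 difference of 1.54 ± 0.07 (edgeR adjusted p = 1.29e-21). Of 25 bile acid genes, 13 were higher and 3 lower (median 0.15). Cyp7a1, the rate-limiting enzyme of bile acid synthesis, measured 84.4 to 628 CPM (median 152) against 19.5 to 372 (median 68.1), a log2 difference of 1.19 ± 0.12. Cyp8b1 did not pass the test, with a log2 difference of 0.13 ± 0.06 (edgeR adjusted p = 0.189). Lpl, lipoprotein lipase, was higher by 2.31 ± 0.13 and Fitm1, a protein of lipid droplet formation, by 1.88 ± 0.12. Of 37 genes of lipid synthesis 5 were higher and 8 lower, and of 27 cholesterol genes 2 were higher and 6 lower; with library size alone these counts were 8 and 7, and 4 and 3, so neither list keeps a direction.

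Genes of ammonia, glutamate and glucose metabolism that passed were more often lower than higher in the members. Of 20 genes of ammonia and glutamate handling, 3 were higher (Lhpp, Rhbg and Slc1a2) and 10 lower. Gls2 measured 10.4 to 101 CPM (median 53.9) against 133 to 385 in midlobular cells (median 275), a log2 difference of -2.14 ± 0.10 (edgeR adjusted p = 2.58e-21), and the 10 libraries did not overlap between the groups. Cps1 differed by -0.50 ± 0.05 and Arg1, the last enzyme of the urea cycle, by -0.53 ± 0.06. Sds, which breaks down serine, differed by -1.80 ± 0.11 and Gldc, of the glycine cleavage system, by -1.37 ± 0.09. Of 32 glucose genes, 3 were higher and 12 lower (5 and 9 with library size alone). Pck1, a control enzyme of gluconeogenesis, measured 467 to 2803 CPM (median 887) against 776 to 3387 (median 1208), lower in 10 of 10 libraries by a log2 difference of -0.55 ± 0.06. The largest negative difference among the named genes was that of Cdh1, the adhesion protein E-cadherin, with 0 to 21.9 CPM in the members (median 4.43) and 5.00 to 113 in midlobular cells (median 39.7; log2 difference -2.92 ± 0.15).

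Target genes of Wnt signalling and other genes of the pathway counted 8 higher and 2 lower of 24, and 4 higher and 3 lower of 22 without ZT0C and ZT12C, so the list keeps no clear direction. Slc1a2 measured 10.9 to 174 CPM (median 40.7) in the members and 0 to 11.6 (median 3.15) in midlobular cells, a log2 difference of 3.85 ± 0.18 (edgeR adjusted p = 1.81e-21). Tbx3, a transcription factor gene, differed by 1.95 ± 0.19 and Lgr5, a receptor that amplifies Wnt signals, by 2.95 ± 0.40, the latter on 71 UMIs in the members and 9 in midlobular cells; without ZT0C and ZT12C it fell under the filter on low counts. Of 17 early-response genes none was higher and 6 were lower, among them Mt2, a metallothionein, at -1.28 ± 0.15, and Fos at -0.42 ± 0.10. One of 18 clock genes was called (Rora, lower).

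**Figure D2:**
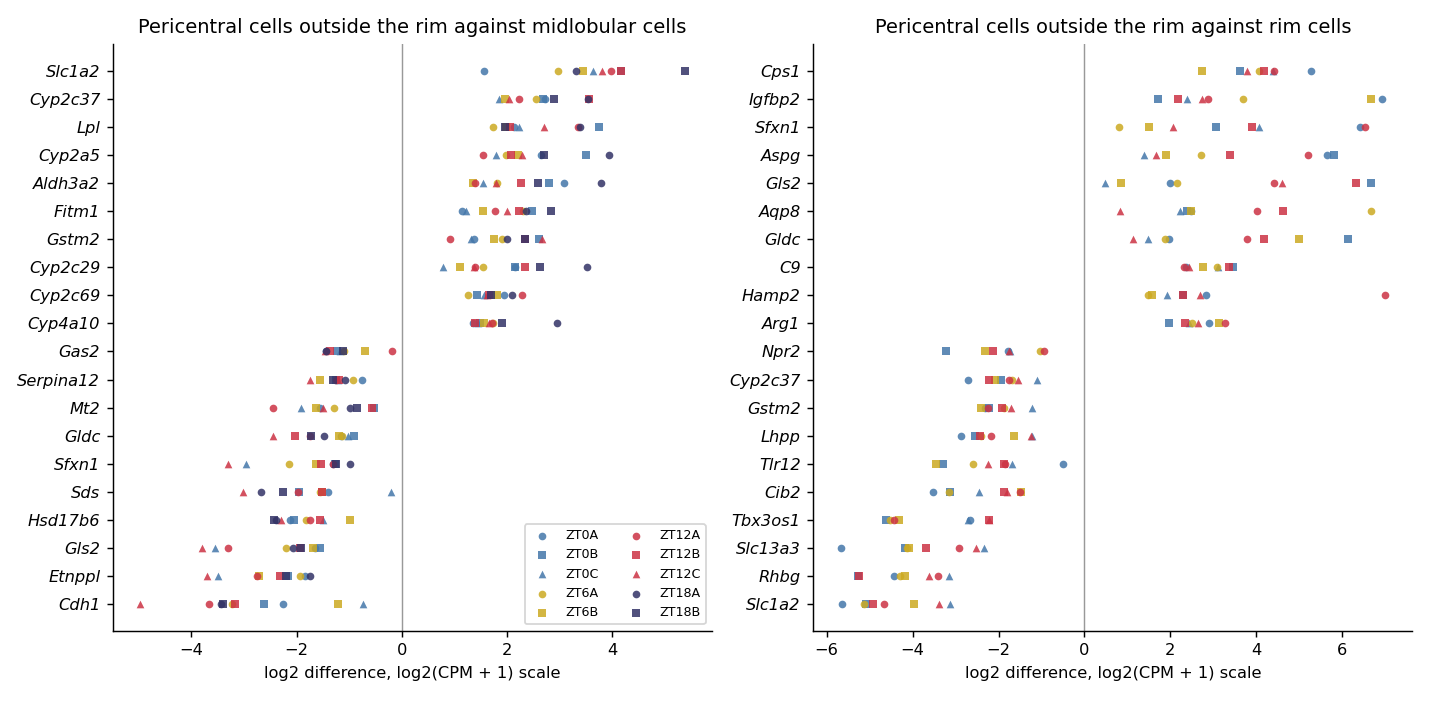
Log2 difference (log2(CPM + 1) scale) between member cells and midlobular cells (left, 10 libraries) or rim cells (right, 8 libraries) for the named genes; each point is 1 library, coloured by time and shaped by letter. Genes run from Slc1a2 at the top to Cdh1 at the bottom on the left, and from Cps1 to Slc1a2 on the right. All points of a gene lie on the same side of 0 because these genes were chosen to have the same direction in every library.

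The second comparison set the members against the rim cells on their other side, in the 8 libraries with at least 20 rim cells, which leaves out ZT18A (18 rim cells) and ZT18B (5). Glul separates the 2 sets by the rule: it measured 180 ± 110 CPM in the members and 7811 ± 2059 in the rim (SD, n = 8). Median depth in these 8 libraries was 1410.5 to 3690.5 UMIs per rim cell. Among cells with at least 2000 UMIs 361 genes were called, 331 of them shared with the 486 given next. Of 8881 genes, 359 (4.04%) were higher in the members and 127 (1.43%) lower (edgeR quasi-likelihood test, library as a block), with 1248 at an unadjusted p under 0.05. This balance depended on the scaling. With library size alone 162 were higher and 237 lower, and by DESeq2 139 and 142. TMM placed the median of all genes at 0.12 on the log2 scale, and library size alone at -0.04. Without ZT0C and ZT12C 435 genes were called.

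Cps1, Sfxn1 (a mitochondrial serine transporter) and C9 had the largest positive differences among the named genes. Cps1 measured 1452 to 3551 CPM (median 2133) in the members and 67.4 to 239 (median 140) in the rim, a log2 difference of 4.25 ± 0.13, and the 8 libraries did not overlap. Arg1 measured 390 to 724 CPM (median 532) against 44.8 to 132 (median 82.1), a log2 difference of 2.73 ± 0.14. The log2 difference of Sfxn1 was 3.497 ± 0.40. C9, a complement component, measured 307 to 697 CPM against 39.7 to 135, with a log2 difference of 3.04 ± 0.16. Of 20 ammonia and glutamate genes, 8 were higher and 4 lower, and under both other scalings 7 were higher and 4 lower. Gls2 and Gldc were thus lower than in midlobular cells and higher than in the rim, by 2.73 ± 0.39 and 2.16 ± 0.34 (log2), on low rim levels of 0 to 29.9 and 0 to 19.3 CPM.

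Genes of lipid synthesis, cholesterol and glucose metabolism that passed were more often higher than lower against the rim, and genes of fatty acid oxidation and ketone synthesis more often lower (6 lower and 1 higher of 40; 10 and 0 with library size alone, 6 and 0 by DESeq2). Of 38 genes of lipid synthesis, 13 were higher and 2 (Cd36 and Lpl) lower, with 8 and 2 under library size alone and 7 and 2 by DESeq2. Scd1, which makes monounsaturated fatty acids, measured 3863 to 8141 CPM (median 5159) against 1338 to 3091 (median 1927), a log2 difference of 1.62 ± 0.10, and Fasn, fatty acid synthase, differed by 0.89 ± 0.13. Of 27 cholesterol genes 9 were higher and none lower, with 6 and 4 higher under the other scalings. Of 32 glucose genes 8 were higher and none lower (4 and 1 with library size alone, 3 and 1 by DESeq2), and Pck1 differed by 1.27 ± 0.11.

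Drug-metabolising and Wnt-related genes that passed were more often lower in the members than in the rim. Of 34 P450 genes and partners, 12 were lower and 5 higher, with 18 and 1 under library size alone and 14 and 0 by DESeq2. Cyp2c37 measured 122 to 579 CPM (median 283) against 709 to 1769 (median 1137), with no overlap and a log2 difference of -1.63 ± 0.10. Cyp2a5 differed by -1.48 ± 0.10, Cyp4a10 by -0.81 ± 0.10 and Cyp7a1 by -0.58 ± 0.12. The Cyp7a1 call was lost among cells with at least 2000 UMIs (edgeR adjusted p = 0.121). Of 28 Wnt-related genes 10 were lower and 2 higher. Slc1a2 measured 10.9 to 174 CPM (median 57.9) in the members and 597 to 2283 (median 1177) in the rim, a log2 difference of -4.15 ± 0.12. Rhbg, an ammonium transporter, differed by -4.09 ± 0.24, Slc13a3, a dicarboxylate transporter, by -3.43 ± 0.28 and Tbx3 by -1.24 ± 0.22. The lists of chaperones and of glucuronidation and sulfation changed their balance with the scaling and are given no direction here.

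**Figure D3:**
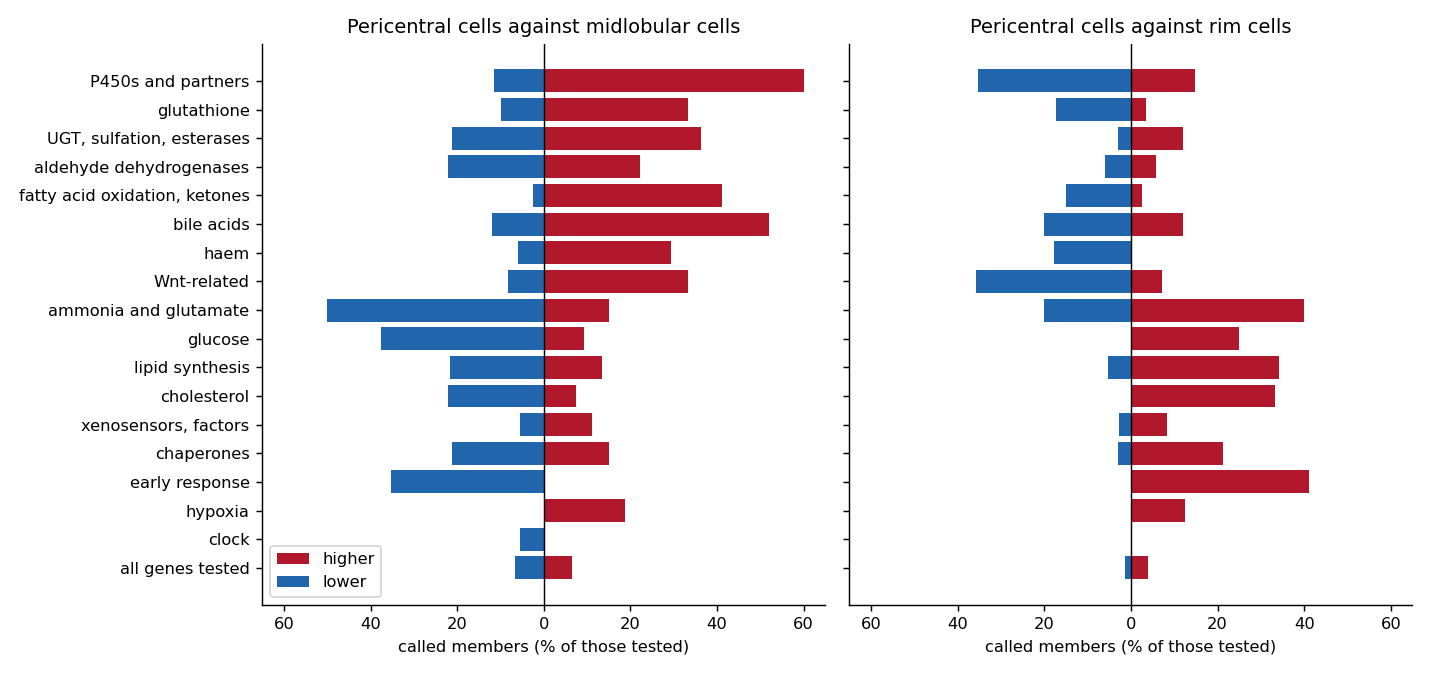
Share of tested genes of each list called higher (red) or lower (blue) in member cells than in midlobular cells (left) or rim cells (right), in percent of the genes tested, with all genes tested in the bottom row. P450 genes reach 60.0% higher on the left; lipid synthesis and cholesterol on the left, and chaperones and the glucuronidation list on the right, change their balance with another scaling.

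The 2 comparisons were then read together. Of 8634 genes tested in both comparisons, 81 were lower than in the rim and higher than in midlobular cells, and 204 were higher than in the rim and lower than in midlobular cells. This balance turned with the scaling, to 161 and 109 with library size alone and 92 and 103 by DESeq2. On 1 side alone, 473 were higher and 344 lower than in midlobular cells, and 140 were higher and 13 lower than in the rim. No gene was lower in the members than on both sides, and 15 (0.174%) were higher than on both. Lower and higher than on both sides were 1 and 6 genes with library size alone, and 0 and 1 by DESeq2. Among the 15, Slc17a8, a vesicular glutamate transporter, measured 25.6 to 60.6 CPM in the members and 0 to 18.1 in the rim (log2 difference 2.09 ± 0.33), and 19.3 to 57.0 in midlobular cells (0.38 ± 0.11). Its difference from the midlobular cells did not pass by DESeq2 (adjusted p = 0.0809). Ifit3, an interferon-response gene, was the one that passed under all 3 scalings, with 9.30 to 36.5 CPM in the members of the 8 libraries and 4 UMIs in all rim cells together. Its difference from the rim was 3.02 ± 0.57, and -0.04 when the Glul limit was set at 3 UMIs.

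The next question was how the members change over the day. The rule ranks cells within a library, so it did not use levels over time. The lowest part of a ranking need not be the same stretch of the lobule in every library. Among midlobular cells, those with a Cyp2e1 UMI ranged from 23.1% in ZT18A to 95.5% in ZT0C. Those with a Cyp2f2 UMI ranged from 31.4% in ZT0C to 85.3% in ZT18A. The part of such shifts in the results over time, including the comparison with all other cells below, was not tested. Of 8915 genes, 259 (2.91%) followed a 24-h wave by edgeR's 2-df quasi-likelihood test of a cosine and a sine, and 1310 had an unadjusted p under 0.05. Fitted peaks lay nearest to ZT18 for 100 of them, to ZT0 for 61, to ZT12 for 54 and to ZT6 for 44. The median peak-to-trough fold of the 259 was 4.95. Without ZT0C and ZT12C 228 were called, 199 of them the same genes, and without both ZT18 libraries 95 were called. With the sample index as a block, 293 were called and 152 were shared.

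Clock genes moved as a group: 13 of 19 were rhythmic, with a median amplitude of 1.35 on the log2 scale against 0.30 over all genes. Dbp, an output factor of the clock, measured 1.64, 2.17 and 1.31 CPM at ZT0 (A, B, C), 97.7 and 129 at ZT6, 78.8, 166 and 123 at ZT12 and 7.35 and 8.61 at ZT18. The ZT6 and ZT12 libraries all lay above the others, with a fitted peak at ZT 9.45 and an amplitude of 3.42 (edgeR adjusted p = 4.33e-06). Nr1d2, a repressor of the loop, measured 7.10, 8.23 and 9.13 CPM at ZT0, 60.9 and 67.3 at ZT6, 81.3, 74.8 and 86.0 at ZT12 and 27.3 and 13.8 at ZT18. Arntl, the activator, was highest at ZT0 (13.9 to 41.8 CPM) and lowest at ZT12 (2.54, 1.84 and 0 CPM), with its peak fitted at ZT 22.04. Per3 peaked at ZT 11.51, Tef at ZT 11.24 and Nr1d1 at ZT 7.38.

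Genes of known daily outputs in liver were among the largest amplitudes. Lpin1, a phosphatidate phosphatase of lipid synthesis, measured 31.7, 39.8 and 43.7 CPM at ZT0, 67.6 and 69.9 at ZT6, 785, 397 and 630 at ZT12 and 58.8 and 80.1 at ZT18, so that only the ZT12 libraries stood high. Elovl3, a fatty acid elongase, measured 623, 633 and 1020 CPM at ZT0, 179 and 216 at ZT6, 68.6, 43.6 and 119 at ZT12 and 311 and 193 at ZT18, high at ZT0. Mt1, a metallothionein, measured 35.5, 25.6 and 27.4 CPM at ZT0, 199 and 160 at ZT6, 262, 323 and 93.0 at ZT12 and 3.15 and 7.75 at ZT18. Usp2, a deubiquitinase, peaked at ZT 12.42 and Rgs16, a regulator of G protein signalling, at ZT 10.74. Chka, choline kinase, peaked at ZT 21.91 and Tubb2a, a tubulin, at ZT 22.64. Each of these 7 genes kept its call when any one library was left out.

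Few drug-metabolising genes passed the rhythm test, as was the case for genes overall (2.91%). Of 38 P450 genes and partners, 3 were rhythmic (Por, Cyp2a4 and Cyp3a44), and of 30 glutathione genes, 32 genes of glucuronidation, sulfation and ester cleavage and 18 aldehyde dehydrogenases and oxidases none was. At an amplitude of 1, the test recovered 79% of simulated rhythms, all of which peaked at ZT0 or ZT12. Peaks at ZT6 or ZT18, with 2 libraries each, were not simulated, so the share found for them is not known. Cyp2c37 measured 122, 266 and 579 CPM at ZT0, 257 and 300 at ZT6, 521, 151 and 474 at ZT12 and 314 and 302 at ZT18, so that libraries of 1 time differed more than the times did (amplitude 0.13, edgeR adjusted p = 0.966). Aldh3a2 measured 117, 145 and 287 CPM at ZT0, 184 and 264 at ZT6, 249, 278 and 332 at ZT12 and 267 and 251 at ZT18 (edgeR adjusted p = 0.520). Cyp3a44 had 51.5 and 18.1 CPM at ZT18 and at most 7.63 CPM elsewhere. Its call was lost without both ZT18 libraries (edgeR adjusted p = 0.946), and with the index as a block its fitted peak moved from ZT 17.87 to ZT 7.31. Cyp2a4, which has the close copy Cyp2a5, was at 1.09 to 31.5 CPM.

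The genes that supply electrons, haem and drug sensing to P450s did move. Por measured 48.6, 98.3 and 131 CPM at ZT0, 170 and 232 at ZT6, 508, 408 and 711 at ZT12 and 181 and 156 at ZT18. All ZT12 libraries lay above all others, with a fitted amplitude of 1.22, peaking at ZT 11.75 (edgeR adjusted p = 0.000439). Alas1 measured 63.9, 49.8 and 63.3 CPM at ZT0, 62.1 and 160 at ZT6, 338, 283 and 233 at ZT12 and 157 and 167 at ZT18, again with all ZT12 libraries highest and its peak fitted at ZT 13.14 (edgeR adjusted p = 0.00197). Nr1i3 measured 65.6, 94.0 and 112 CPM at ZT0, 129 and 151 at ZT6, 206, 152 and 195 at ZT12 and 64.1 and 53.4 at ZT18, with its peak fitted at ZT 8.51 (edgeR adjusted p = 0.0410). The call of Nr1i3 was lost without any one of 8 of the 10 libraries, at an adjusted p of up to 0.156.

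Bile acid, glucose and lipid genes held further rhythms. Of 25 bile acid genes 2 were called, 1 without ZT0C and ZT12C and 4 by DESeq2. Cyp7a1 measured 155, 84.4 and 93.9 CPM at ZT0, 85.4 and 109 at ZT6, 628, 193 and 472 at ZT12 and 149 and 252 at ZT18. The ZT12B value lies below that of ZT18B, so the times overlap, and the call (edgeR adjusted p = 0.0315) was lost without any one of 6 of the 10 libraries and without ZT0C and ZT12C together (adjusted p = 0.119). Abcb4, the phospholipid transporter of the bile canaliculus, peaked at ZT 9.51, and its call was lost without any one of 8 libraries. Of 32 glucose genes 3 were rhythmic, with 1 of 32 without ZT0C and ZT12C and 7 of 32 by DESeq2. Pck1 measured 571, 467 and 837 CPM at ZT0, 1327 and 938 at ZT6, 2803, 2232 and 2311 at ZT12 and 538 and 581 at ZT18, with the 3 ZT12 libraries highest (edgeR adjusted p = 0.00540). Of 37 lipid synthesis genes 9 were rhythmic, among them Fasn, with 808 and 488 CPM at ZT18 and 159 and 160 CPM at ZT6 (edgeR adjusted p = 0.00680). Its call was lost without ZT18A (edgeR adjusted p = 0.0936), without both ZT18 libraries (adjusted p = 0.350) and with the index as a block (adjusted p = 0.0643).

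Chaperones were called more often than genes overall: of 33 tested, 10 were rhythmic, with a median amplitude of 0.57. Hsp90aa1, a cytosolic chaperone, measured 379, 311 and 375 CPM at ZT0, 111 and 104 at ZT6, 137, 137 and 174 at ZT12 and 485 and 571 at ZT18. The ZT0 and ZT18 libraries all lay above the rest, with its peak fitted at ZT 20.03 (edgeR adjusted p = 4.82e-05). Hsph1 peaked at ZT 18.91, with its call lost without both ZT18 libraries (edgeR adjusted p = 0.0661), and Creld2, of the endoplasmic reticulum, at ZT 18.98. Hspa5, the main chaperone of the endoplasmic reticulum, peaked at ZT 19.21, and its call was lost without ZT6A, ZT6B or ZT18B (edgeR adjusted p up to 0.132).

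**Figure D4:**
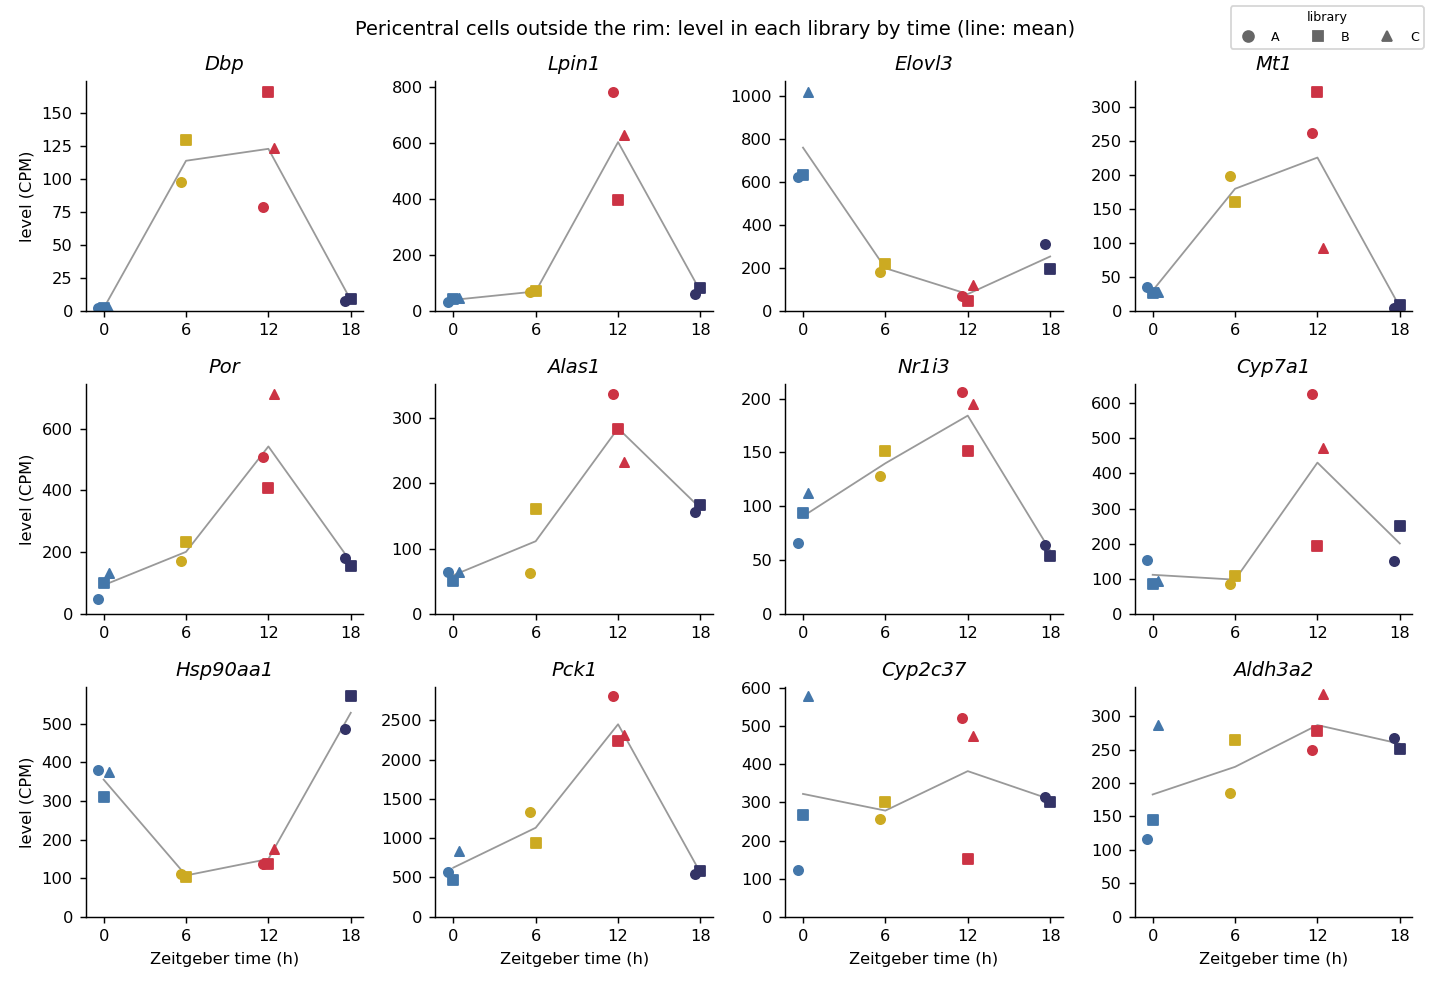
Level (CPM, linear axis from 0) of 12 genes in the member cells of each library against zeitgeber time; points are libraries, shaped by letter, and lines join the means of each time. Por, Alas1, Lpin1 and Pck1 are highest in the 3 ZT12 libraries, Hsp90aa1 is highest at ZT18 and ZT0, and Cyp2c37 differs most between libraries of the same time.

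Direct contrasts of opposite times gave fewer genes. Between ZT12 and ZT0, 75 of 8915 genes were higher (0.841%) and 70 lower (0.785%) at ZT12, with 1026 at an unadjusted p under 0.05. Under scaling by library size alone 92 were higher and 56 lower, and the median of all genes moved from -0.0038 to 0.13 (log2). Deviations of same-lettered libraries at these times from their group means correlated at 0.502 (B) and 0.471 (C), but only at 0.116 for A. Same-lettered libraries at these times also share their index. With the letter as a block 231 genes were called, which include the 145. Without ZT0C and ZT12C, 99 were called. Lpin1 was higher at ZT12 by 3.82 ± 0.28 (log2, edgeR adjusted p = 5.33e-07), Por by 2.42 ± 0.30 and Alas1 by 2.12 ± 0.32. Lower were St5, at 36.6, 41.6 and 46.3 CPM against 5.08, 4.13 and 2.33, by a log2 difference of -3.46 ± 0.38, and Cldn1, a tight junction protein, at 66.1, 69.3 and 58.7 CPM against 2.54, 10.6 and 6.97, by -3.06 ± 0.33.

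Between ZT18 and ZT6, with 2 libraries each, 109 genes were higher (1.22%) and 48 lower (0.538%) at ZT18, with 1203 at an unadjusted p under 0.05. Both ZT6 libraries carry index number 7 and both ZT18 libraries number 4, so time and index cannot be told apart in this contrast. Leaving out ZT6A lowered the count to 28. Without Gm-number, Mup and ribosomal protein entries 48 were higher and 37 lower, so the excess of higher genes was smaller. Calls of other genes can also change in such a refit, and the part of these entries alone was not tested. Of 33 chaperones 8 were higher and 1 (Cirbp, which is induced by cold) lower. Hsp90aa1 was higher by 2.39 ± 0.29 (log2, edgeR adjusted p = 0.000181). Aacs, which activates acetoacetate for lipid synthesis, measured 99.8 and 129 CPM against 8.61 and 16.8, higher by 3.36 ± 0.48, and Serpina3c, a protease inhibitor of a multigene family, 128 and 139 against 12.9 and 2.59 CPM. Tfrc, the transferrin receptor, measured 38.9 and 23.3 against 4.30 and 5.17 CPM. Lower were Mt1, by a log2 difference of -4.89 ± 0.60, and Lpl, at 9.46 and 6.03 CPM against 62.7 and 78.9 (-3.10 ± 0.58). Leaving out 1 library lost the calls of Aacs, Serpina3c, Tfrc, Creld2, Lpl, Ypel3 and Acsf2, and Dbp, Mt1 and Hsp90aa1 kept theirs.

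Whether the daily change of the members differs from that of all other cells of the same libraries was tested with an interaction. Of 8920 genes 8 passed (0.0897%), with 615 at an unadjusted p under 0.05. By DESeq2, or when the test was limited to a mean CPM of 20 or more, none passed. Without ZT0C and ZT12C 25 passed, the 8 among them, and leaving out 1 library gave 1 to 26. The values below are therefore given as differences in each library. Fabp1, the fatty acid binding protein of liver, exceeded the other cells by 0.79, 0.87 and 0.53 (log2) at ZT0, 0.56 and 0.0037 at ZT6, 0.15, 0.27 and 0.81 at ZT12 and 1.36 and 1.03 at ZT18, with both ZT18 libraries highest (edgeR adjusted p = 0.0173). Gldc lay below the other cells by -1.23, -0.98 and -1.47 at ZT0, -1.35 and -1.39 at ZT6, -3.03, -2.21 and -3.08 at ZT12 and -1.70 and -1.86 at ZT18, with all ZT12 libraries lowest (edgeR adjusted p = 0.0173). Cyp7b1, of the acidic bile acid pathway, exceeded the others by 0.33 and 0.39 at ZT18 and by 0.70 to 1.95 at the other times (edgeR adjusted p = 0.0492). Ak4, a mitochondrial adenylate kinase, lay below the others by -1.05 to -2.39 at ZT0 and ZT6 and by -0.05 to -0.66 at ZT12 and ZT18. Acly, ATP citrate lyase, was lower by -0.02 and -0.65 at ZT18 and by -0.93 to -1.52 at ZT12. Saa2, an acute-phase protein, ranged from -1.76 to 0.78. The other 2 were Cyp2a4, at 1.09 to 31.5 CPM in the members, and Hbb-bs, a haemoglobin gene, at 0 to 33.6 CPM.

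**Figure D5:**
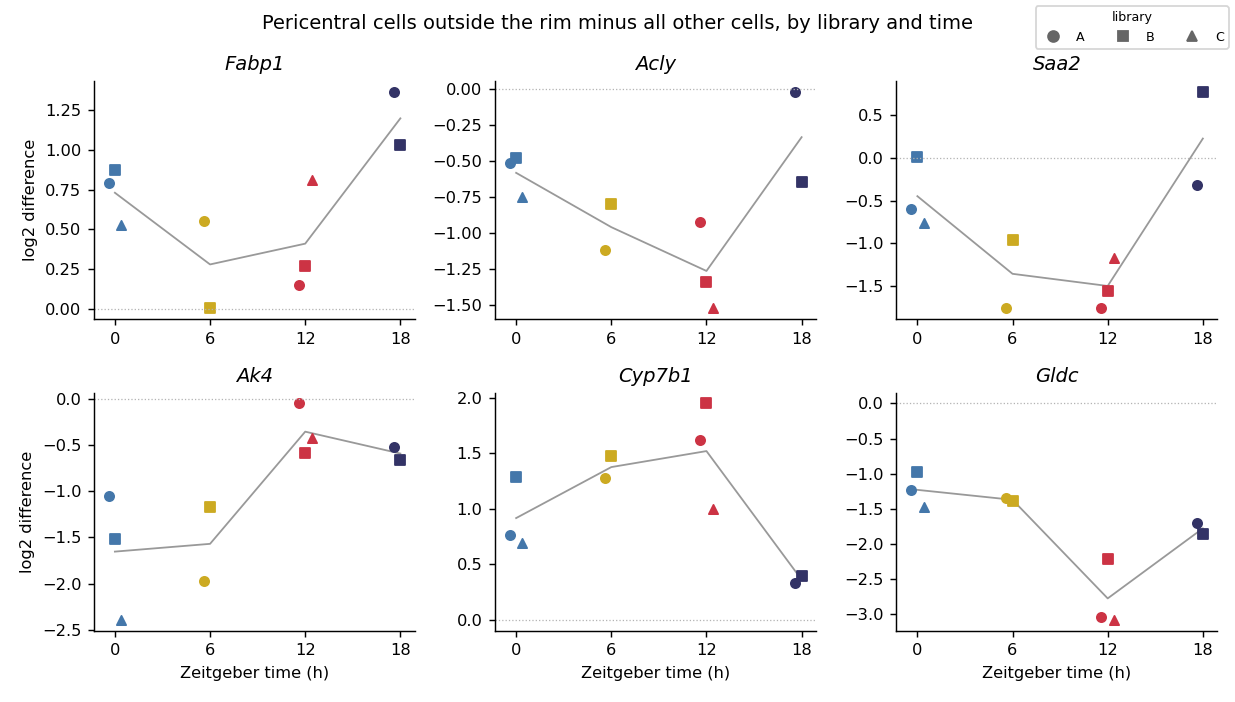
Log2 difference (log2(CPM + 1) scale) between member cells and all other cells of the same library against zeitgeber time for 6 genes; points are libraries, shaped by letter, and lines join the means of each time. Fabp1 differs most at ZT18 and Gldc at ZT12.

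The promoters of rhythmic genes were searched for the letters of clock-related sites, as a description. RefSeq promoter sequences (build GRCm38.p6, 250 bases before to 50 after a transcript start) matched 176 of the 259 rhythmic genes by symbol. The E-box CACGTG, which reads the same on both strands, lay in 24 of them (13.6%), in 12.6% of the promoters of all genes tested and in 8.09% of all promoters. The D-box TTATGTAA or its complement on the other strand lay in 3 (1.70%), against 0.797% and 1.11%. The letters CTTTGATC of TCF/LEF sites, on either strand, lay in 5 of 433 promoters of genes higher than in midlobular cells (1.15%), in 8 of 435 of genes lower (1.84%) and in 1.09% of all promoters. A promoter of Per3 held the D-box 2 times on the gene's strand, starting 205 and 158 bases before the start, and that of Nr1i3 held an E-box 244 bases before it. Both are shown because these 2 rhythmic genes were described above. The first lies at chr4:151044616-151044915 (minus strand) and the second at chr1:171213720-171214019 (plus strand), 5′ to 3′, with the matched letters in capitals.
Per3: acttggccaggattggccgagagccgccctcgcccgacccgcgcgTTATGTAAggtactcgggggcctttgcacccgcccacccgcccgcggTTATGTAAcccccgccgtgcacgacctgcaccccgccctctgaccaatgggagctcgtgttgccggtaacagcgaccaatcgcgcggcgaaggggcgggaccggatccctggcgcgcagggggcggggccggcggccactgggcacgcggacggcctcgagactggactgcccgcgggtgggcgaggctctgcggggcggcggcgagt
Nr1i3: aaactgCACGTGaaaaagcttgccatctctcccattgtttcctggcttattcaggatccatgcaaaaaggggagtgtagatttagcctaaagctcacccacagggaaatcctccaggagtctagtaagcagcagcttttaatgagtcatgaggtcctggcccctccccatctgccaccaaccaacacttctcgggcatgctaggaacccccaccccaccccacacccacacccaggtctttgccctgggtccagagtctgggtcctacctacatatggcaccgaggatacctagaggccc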

How the data were processed

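Single hepatocytes from 10 libraries at 4 zeitgeber times were analysed from the deposited tables, in which the authors give whole UMI counts per gene and numbered cell, with no normalization. Cell Ranger and the builds mm10 and hg19 are named, per the submitters' processing notes; versions and the role of each are not given in the sources used here. Cells carry numbers and not barcodes, so barcodes shared between libraries could not be counted. No doublet caller was run, and whether doublets were removed before deposit is not given in the sources used here. Of 14812 gene entries, 14320 matched 1 symbol, and symbols are printed in the usual case. The smallest cell held 1048 UMIs, and no cell was left out. The members and gene lists were chosen with earlier results of these data known, so counts over the lists are descriptions.

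For the score, counts were divided by the cell's total, multiplied by 10000, taken as the natural log after adding 1, and turned into z-scores within each library. UMIs of each library's members, rim, midlobular and periportal cells were then summed, so that a library is the replicate. Sums were tested with edgeR 4.0.16 (R 4.3.3; quasi-likelihood F-test, TMM scaling, a mean CPM of 3 or more, Benjamini-Hochberg adjusted p under 0.05). Comparisons of zones had the library as a block, and the fit of the 24-h wave used all 10 libraries and gives its amplitude as mean to peak on the log2 scale. Both contrasts of times were taken from a fit of all 4 times. DESeq2 1.42.0, other scalings, filters, cell choices and left-out libraries were tried as alternatives; those without ZT0C and ZT12C and with the sample index as a block were chosen after the data were seen. Between ZT0 and ZT12, the deviations of same-lettered libraries from their group means correlated at 0.116 (A), 0.502 (B) and 0.471 (C). The letters thus pair these times for B and C, and hardly for A. Between ZT6 and ZT18 the value was 0.028. No library was a copy of another. Summed counts were compared between libraries of a time by chi-square per degree of freedom. This was 2.605 for the ZT6 pair and 2.63 for the ZT18 pair, against 9.266 to 27.901 for pairs within ZT0 and ZT12. Each of the ZT6 and ZT18 pairs also shares 1 index. Whether these pairs are technical repeats is not in the labels, so their spread may understate that between mice.

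Named genes were, per zone comparison, the 10 furthest from 0 in each direction with at least 20 CPM and the same direction in every library; for time, the 10 of largest amplitude and, per contrast, the 5 furthest in each direction without overlap; and members of the lists. Rule genes, Gm-number, Mup and ribosomal protein entries were left out of this choice. On simulated counts, differences of 1 and 2 (log2) were recovered in 11% and 82% of cases for ZT12 against ZT0 and 12% and 60% for ZT18 against ZT6. For zones these shares were 97% and 92% against midlobular cells and 46% and 78% against rim cells. Amplitudes of 1 and 2 were recovered in 79% and 100% for the rhythm and 89% and 100% for the difference in rhythm. An amplitude of 1 is a log2 difference of 2 between peak and trough, so these shares and those for differences are at unlike sizes. Simulated rhythms, and simulated differences in rhythm, had their peak at ZT0 or ZT12 only. Each simulation had its own 8897 to 8937 genes.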

Additional observations from a re-analysis of the deposited data

Results flagged for a closer look

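In 44 groups of library values checked for a value far from the rest, 3 held one, and chance gives about 1 in 20. The median mitochondrial share of member cells was 24.12% in ZT12A, with the next library at 17.56% and the lowest at 11.09%. The log2 difference of Cyp4a10 between member and midlobular cells was 2.949 in ZT18A, with the next at 1.909 and the lowest at 1.359. The log2 difference of Hamp2, a hepcidin gene, between member and rim cells was 7.001 in ZT12A, with the next at 2.833 and the lowest at 1.477.

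The daily change of 8 genes differed between member cells and all other cells by edgeR's interaction test. The amplitudes of the difference (log2) were 1.013 for Saa2, 0.7858 for Ak4, 0.619 for Gldc, 0.6056 for Cyp7b1, 0.4959 for Fabp1 and 0.4875 for Acly, and 3.313 for Cyp2a4 and 3.058 for Hbb-bs at low levels. None of the 8 passed by DESeq2.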

How the results depend on the processing

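With no filter on low counts, the counts of called genes were 654 for the rhythm, 340 for ZT12 against ZT0, 380 for ZT18 against ZT6 and 39 for the difference in rhythm. With the letter as a replicate block they were 394, 231 and 362 for the first 3. These letters pair only ZT0 with ZT12, for B and C and hardly for A. With no replicate block, 104 genes were called against midlobular cells, 111 against rim cells and 0 for the difference in rhythm. DESeq2 called 744, 281 and 0 for the same 3. A mean of at least 20 CPM gave 104 for ZT18 against ZT6 and 0 for the difference in rhythm. Leaving out Gm-number, Mup and ribosomal protein entries gave 85 for ZT18 against ZT6 (48 higher and 37 lower). Without both ZT18 libraries, 95 genes were rhythmic and 0 differed in rhythm. The difference in rhythm gave 5 with a narrower score range (the lowest 25% of cells) and 25 without ZT0C and ZT12C. The cause of these shifts was not tested. Leaving out 1 library gave 121 (without ZT18A) to 289 rhythmic genes, 94 to 137 for ZT12 against ZT0, 28 (without ZT6A) to 204 for ZT18 against ZT6, 980 to 1145 against midlobular cells, 388 to 485 against rim cells and 1 (without ZT18B) to 26 for the difference in rhythm.

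Among the named genes, 2 reversed. The difference of Ifit3 from rim cells was -0.036 with fewer than 3 Glul UMIs (edgeR adjusted p = 0.982), and the amplitude of Cyp3a44 was 0.34 with the index as a block, with its fitted peak moved by over 6 h. Some named genes kept their call under every alternative in which they were tested. These were 18 of 28 rhythmic genes, 21 of 41 against midlobular cells, 24 of 37 against rim cells and 0 of 6 for the difference in rhythm. An alternative whose filter left a gene out, as for Lgr5, was not counted as a lost call. Genes with few UMIs, such as Lgr5, and the 2 libraries at each of ZT6 and ZT18 limit what could be detected.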
